A study of Mus musculus with 6 samples.

Results

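The genes for the subunits of the NMDA receptor, Grin1, Grin2a, Grin2b, Grin2c, Grin2d, Grin3a and Grin3b, were followed through a set of accessible chromatin regions of nuclei from the ventral tegmental area of the mouse midbrain. A region was taken as a member when it overlapped the RefSeq bounds of a subunit gene extended by 20 kb on each side, or, for Grin2b, when it lay up to 200 kb away. This gave 312 of 193148 regions for the 7 genes: 13 for Grin1, 77 for Grin2a, 153 for Grin2b, 12 for Grin2c, 12 for Grin2d, 35 for Grin3a and 10 for Grin3b. All 312 passed the filter on low counts. The windows of the short genes also hold parts of neighbouring genes, so that 227 of the 312 regions lie inside a subunit gene and only 1 of the 10 Grin3b regions does.

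The NMDA receptor is a glutamate-gated cation channel that opens when glutamate and a co-agonist, glycine or D-serine, are bound while the membrane is depolarised. Each channel contains the obligatory subunit GluN1, made from Grin1, together with GluN2 subunits (Grin2a to Grin2d), which bind glutamate and set the channel kinetics, or GluN3 subunits (Grin3a and Grin3b), which bind glycine and lower calcium permeability. In the dopaminergic cells of this midbrain area, which signal reward, these receptors are known for their role in burst firing and in the plasticity of excitatory synapses.

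The study asked how lowering Ogt, the gene of O-GlcNAc transferase, a sugar-transferring enzyme with many nuclear targets, alters chromatin accessibility in these neurons. Nuclei carrying a green fluorescent protein were sorted from the ventral tegmental area and profiled by ATAC-seq, an assay of the DNA that a transposase can reach. Control libraries (3) came from mice of genotype Ogtflox-/Y and knockdown libraries (3) from mice of genotype Ogtflox+/Y. Both groups had received the same pair of viral vectors, AAV-TH-Cre for Cre recombinase and AAV-DIO-H2B-EGFP for the Cre-dependent nuclear reporter, so the controls carried Cre as well. The vector name ties Cre to the tyrosine hydroxylase gene, and only cells that took up both vectors could be sorted. The sources used here give no age, strain background or time after injection. Whether the libraries of a group stem from separate animals is not stated, so a p-value reflects the spread among these libraries alone, and that spread may be technical.

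Libraries held 34384319 to 66853563 reads, of which 12698758 to 24440507 fell in regions, and 3 reads correspond to 0.117 to 0.237 CPM, the count scaled to library size, depending on the library. The percentage of reads in regions was 38.2, 36.6 and 37.6 in control replicates 1 to 3 and 33, 31 and 37 in knockdown replicates 1 to 3. Groups follow the genotype label, and the title of knockdown replicate 1 names the control genotype instead. With that library moved to the controls, no region at all was called (edgeR, 0 of 192925 regions; 23047 had an unadjusted p under 0.05, 32 of them members), so each call given here rests on the genotype label. No region could check the lowering of Ogt itself, since the sources used here do not place the floxed exons. A region near the start was found for all 10 markers of dopaminergic neurons, and 2 of them, En1 and Drd2, rose. Th, at 172 to 378 CPM, stood far above the rest. The others were at 2.5 CPM (Foxa2) to 17.7 CPM (Drd2) in single libraries, with Slc6a3 at 3.82 to 4.67 CPM. The summed level at the start regions of all 5 GABAergic markers was 36.4 to 49.6 CPM in control and 58.2 to 77.3 CPM in knockdown, and 4 of the 5 rose. Of 6 astrocyte markers, 5 had a region, with sums of 18.6 to 21.2 CPM in control and 49.8, 20.3 and 43.5 CPM in knockdown replicates 1 to 3, and 3 rose. Of 4 endothelial and mural markers, 3 had a region, and their sums were 9.34 to 12.3 CPM in control and 4.67 to 7.17 CPM in knockdown. Of 6 oligodendrocyte lineage markers 3, Mog, Mag and Olig2, were called higher. The sums of this list were 33.3 to 36.9 CPM in control and 56.3, 32 and 36.4 CPM in knockdown replicates 1 to 3. Knockdown replicate 1 was the high library, with Mag at 9.89, 0.158 and 0.797 CPM and Mog at 5.97, 0.95 and 0.863 CPM in knockdown replicates 1 to 3. In knockdown replicate 2 Mag and Olig2 (1.82 CPM) were below all controls. Both skeletal muscle markers fell, with sums of 11.4 to 14 CPM in control and 6.72 to 10.7 CPM in knockdown. Of 2 glutamatergic and 5 microglia markers, 1 each had a region, and neither was called. For comparison, 34% of the start regions of all genes rose and 6.6% fell. The part of these marker differences in the values of the subunit genes was not tested. In sorted but pooled nuclei, fewer nuclei of a type and lower accessibility per nucleus cannot be told apart.

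Accessibility at the subunit genes shifted in both directions. Of the 312 regions, 32 rose (10.3%) and 49 fell (15.7%) in knockdown, at an adjusted p under 0.05 in the quasi-likelihood test of edgeR. Over all 191693 regions tested, 15.4% rose and 12.7% fell. Of the gains, 10 lay among the 153 Grin2b regions, 9 among the 13 of Grin1, 4 each among the 77 of Grin2a and the 12 of Grin2d, 2 each at Grin2c and Grin3a and 1 at Grin3b. Most losses belonged to the long genes, with 16 of 74 regions inside Grin2a and 19 of 104 inside Grin2b lower, and 7 more losses lay 20 to 200 kb from Grin2b. The median log2 fold change of knockdown over control was -0.12 over the members and -0.01 over all regions. Scaling by reads in regions moved the median of all regions to -0.12 and scaling by library totals to -0.27. With library totals 11 of the 32 gains and all 49 losses were still called, and the corresponding medians were 0.32 for Grin1, -0.53 for Grin2a and -0.52 for Grin2b. The share of all reads in regions that fell in the members was 0.165% ± 0.00207 (SD, n = 3) in control and 0.154% ± 0.00423 (SD, n = 3) in knockdown. No control value overlapped a knockdown value (exact two-sided permutation test, p = 0.1, the smallest that 3 against 3 libraries allow).

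The start regions of the 7 genes, all 401 bp wide, spanned a range from 4.8 to 20.3 CPM in control. A start region is the one over the RefSeq start, or the one nearest to a gene bound within 1 kb where the table gives no start or no region covers it. In the latter case it can lie at either end of the gene. For Grin2d it lies at the upper bound, while the region 295 bp from the RefSeq start had a control mean of 21.2 CPM and rose. The place of Grin2d in the order below, and the count of start regions that rose, therefore depend on this rule. In control the order was Grin3a, Grin1, Grin2a, Grin2b, Grin2d, Grin3b and Grin2c. The library ranges of Grin3a and Grin1, of Grin1 and Grin2a, of Grin2b and Grin2d, and of Grin3b and Grin2c overlapped, so these neighbours were not separated. In knockdown the order of means was the same. There Grin3a stood apart from Grin1, and Grin1 from Grin2a, without overlap, and the ranges of Grin2a, Grin2b and Grin2d overlapped in turn. Of the 7 start regions 2 rose, those of Grin1 and Grin3a, and none fell (edgeR; 1, that of Grin3b, was lower at an unadjusted p under 0.05, and 0 fell by DESeq2). Among the 13859 distinct start regions found in this way for all genes, 34% rose and 6.6% fell, with a median log2 fold change of 0.21.

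**Figure D1:**
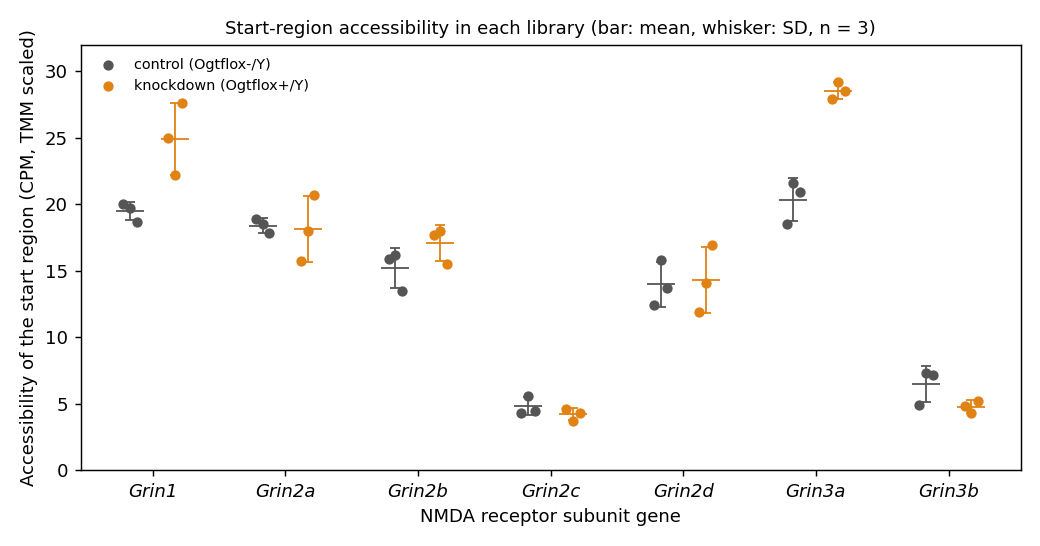
Accessibility in CPM at the start region of each subunit gene, one point per library, with the group means as bars. The knockdown points of Grin1 and Grin3a lie above all their control points, a difference that is no longer called for either gene when libraries are scaled by their totals, and the points of the other genes overlap between groups.

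RefSeq promoter sequences (GRCm38.p6, the assembly called mm10) matched 4 of the 7 genes, Grin1, Grin2c, Grin2d and Grin3b. The 250 bases before the start are given 5′ to 3′ on the strand of the gene, because the start region covers part of them in 3 of these genes and the base composition differs widely between them. Capitals mark the motifs found.
Grin1: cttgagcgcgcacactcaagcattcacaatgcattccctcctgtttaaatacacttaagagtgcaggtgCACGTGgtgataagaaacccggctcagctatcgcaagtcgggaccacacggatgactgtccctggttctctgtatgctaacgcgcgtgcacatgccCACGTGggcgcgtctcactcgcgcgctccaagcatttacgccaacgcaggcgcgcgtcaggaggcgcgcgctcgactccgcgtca
Grin2c: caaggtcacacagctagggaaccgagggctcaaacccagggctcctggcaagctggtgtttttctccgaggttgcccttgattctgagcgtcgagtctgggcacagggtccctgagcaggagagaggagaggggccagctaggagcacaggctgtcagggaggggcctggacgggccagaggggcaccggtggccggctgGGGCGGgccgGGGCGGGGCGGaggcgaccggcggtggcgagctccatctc
Grin2d: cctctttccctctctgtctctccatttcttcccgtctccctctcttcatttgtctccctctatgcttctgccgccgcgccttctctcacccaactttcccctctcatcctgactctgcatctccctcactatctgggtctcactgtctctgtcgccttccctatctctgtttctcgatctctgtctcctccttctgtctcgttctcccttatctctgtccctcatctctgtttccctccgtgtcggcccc
Grin3b: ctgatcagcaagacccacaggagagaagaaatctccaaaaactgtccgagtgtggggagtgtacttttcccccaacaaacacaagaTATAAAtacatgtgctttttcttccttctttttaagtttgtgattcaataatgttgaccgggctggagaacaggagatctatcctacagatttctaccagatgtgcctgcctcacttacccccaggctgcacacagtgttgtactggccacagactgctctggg

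These stretches lie on chromosome 2, 25319188 to 25319437 (Grin1, minus strand), chromosome 11, 115267244 to 115267493 (Grin2c, minus strand), chromosome 7, 45866682 to 45866931 (Grin2d, minus strand) and chromosome 10, 79970474 to 79970723 (Grin3b, plus strand). They were searched on both strands for 6 motifs: the GC box GGGCGG, the E-box CACGTG, the cAMP response element TGACGTCA, the nuclear respiratory factor (NRF1) type motif, the STAT type TTCNNNGAA and the TATA sequence TATAAA. Grin1 holds 2 E-boxes, which begin at positions -181 and -85 counted from the start, and 6.64% of 17491 promoters of this length hold at least 1. Grin2c holds 3 copies of the GC box, 2 of which overlap, a motif present in 42.7% of promoters, and Grin3b holds 1 TATA sequence at position -164, present in 12.4%. None of the 6 motifs is in the Grin2d stretch. The GC content is 68.8% for Grin2c, 58.8% for Grin1, 54.4% for Grin2d and 46% for Grin3b, against a median of 55.2% for all promoters. The accessible start region covers 218 of these bases in Grin1, 162 in Grin2c and 74 in Grin3b. In Grin2d none is covered, and the nearest region lies 295 bp from the start, inside the gene.

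Grin1, the gene of the obligatory subunit, showed gains over most of its window. Of its 13 regions 9 rose and none fell (edgeR; 0 at an unadjusted p under 0.05 and 0 by DESeq2), and the median log2 fold change was 0.58. Of the 9 regions of this window within 1 kb of a gene bound 8 rose, and among all regions so placed 32.9% rose and 6.93% fell. At the start region (mm10 chromosome 2, 25319005 to 25319405), control replicates 1 to 3 had 20, 19.7 and 18.7 CPM and knockdown replicates 1 to 3 had 25, 22.2 and 27.6 CPM, the order kept for all values that follow. All knockdown libraries were above all control libraries there (log2 fold change 0.36, SE 0.11, edgeR adjusted p = 0.0195). That call was lost with scaling by library totals (edgeR adjusted p = 0.59), by reads in regions (0.061) or by loess curves (0.22), without control replicate 2, control replicate 3 or knockdown replicate 3 (0.068, 0.078 and 0.072), and with knockdown replicate 2 alone against the controls (0.47).

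A pair of further regions inside the gene and within 1 kb of the start rose as well. The region from 25318564 to 25318964 had 4.78, 4.8 and 4.49 CPM in control and 6.87, 7.28 and 8.7 CPM in knockdown (log2 fold change 0.70). The region from 25318045 to 25318445 had 12, 12.1 and 11.6 CPM in control and 16.6, 15.2 and 21.6 CPM in knockdown (log2 fold change 0.59). Both were lost with library totals and with knockdown replicate 2 alone. The 2 regions deeper inside Grin1, at 1.35 to 3.93 CPM in single libraries, were not called. The gains inside the gene thus lie at its ends, the fourth being a region shared with Lrrc26, a gene for an auxiliary protein of potassium channels, at the lower bound.

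The largest gain of the window lay upstream of Grin1, 14390 bp from the gene and inside Man1b1, a neighbouring gene for a mannosidase of glycoprotein quality control. This region (25333577 to 25333977) had 0.683, 0.702 and 0.615 CPM in control and 6.49, 6.81 and 6.9 CPM in knockdown. Its libraries agree closely within each group, and the log2 fold change was 3.32 (SE 0.24, edgeR adjusted p = 9.59e-08). The control level rests on 9 to 18 reads per library and the knockdown level on 86 to 104. A region between the genes, 9268 bp from Grin1 (25328455 to 25328855), had 1.59, 1.13 and 1.14 CPM in control and 3.85, 4.99 and 2.85 CPM in knockdown (log2 fold change 1.62, edgeR adjusted p = 0.000374). The most accessible region of the window, at a gene bound of Man1b1 (25332454 to 25332854), had 35.2, 32.9 and 33.6 CPM in control and 51.2, 41.9 and 46.1 CPM in knockdown (log2 fold change 0.45, edgeR adjusted p = 0.00274). The first pair of these gains was called under every alternative but the grouping by title. The gain at the Man1b1 bound was lost with library totals, loess curves and knockdown replicate 2 alone. A region at Ssna1, at the far end of the window (25272204 to 25272604), was also called under all those alternatives (27, 24 and 22.1 CPM in control, 41.6, 36.8 and 36.8 CPM in knockdown).

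**Figure D2:**
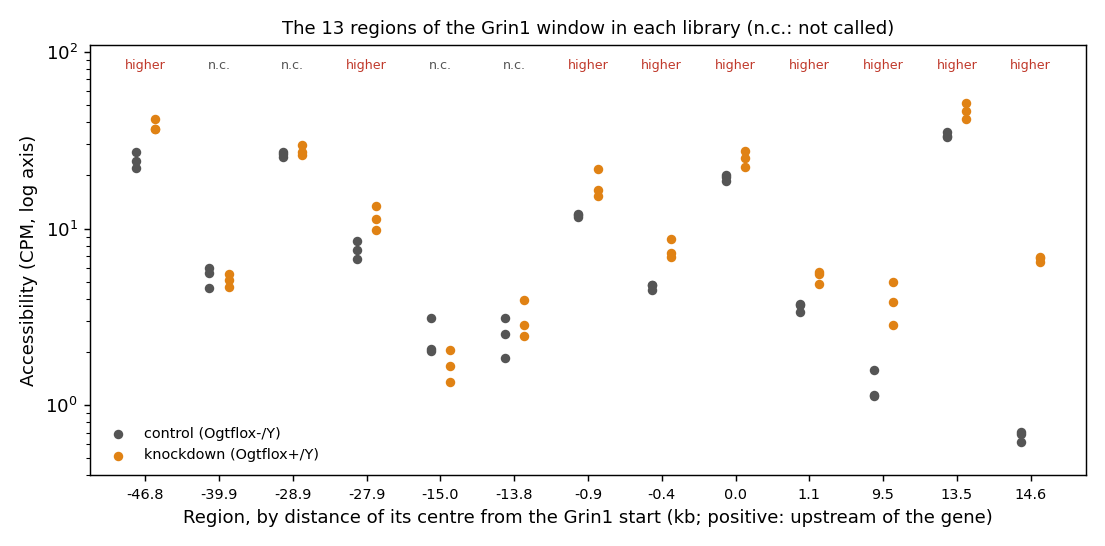
Accessibility in CPM on a log axis for the 13 regions of the Grin1 window in each library, ordered by the distance of the region centre from the Grin1 start in kb. The groups are furthest apart at the region 14.6 kb upstream, at 0.615 to 0.702 CPM in control and 6.49 to 6.9 CPM in knockdown, and the 4 regions marked n.c. were not called.

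The GluN2A and GluN2B genes, Grin2a and Grin2b, encode the glutamate-binding subunits that predominate in the adult and developing forebrain, respectively. They are the longest of the family, at 428 and 460 kb, and most of their regions lie inside the gene body. Of 72 Grin2a regions inside the gene and over 1 kb from a gene bound, 4 rose and 16 fell (22.2%). Of 102 such Grin2b regions, 3 rose and 19 fell (18.6%). Inside genes of any length 11.9% of such regions rose and 13.4% fell. Among 28440 regions placed in the same way inside the 351 genes of 400 kb or longer, 8.21% rose and 13.8% fell, with a median log2 fold change of -0.10. The corresponding medians were -0.29 for Grin2a and -0.29 for Grin2b. The regions that fell had median levels of 3.09 CPM in Grin2a and 2.9 CPM in Grin2b. Most such regions were weak whether they fell or not. Only 2 of 72 in Grin2a and 4 of 102 in Grin2b were over 10 CPM, and of these 1 and 0 fell. Of 26 Grin2b losses in the whole window 13 were also called by DESeq2, as were 8 of 17 Grin2a losses. With knockdown replicate 2 alone against the controls 9 and 6 were called.

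The start regions of both long genes were not called. At Grin2a (chromosome 16, 9995422 to 9995822) the levels were 18.9, 18.5 and 17.8 CPM in control and 15.7, 18 and 20.7 CPM in knockdown, a spread on both sides of the controls (log2 fold change -0.02, edgeR adjusted p = 0.931; 0.09 without knockdown replicate 1). At Grin2b (chromosome 6, 136173486 to 136173886) they were 15.9, 16.2 and 13.5 CPM in control and 17.7, 18 and 15.5 CPM in knockdown. The Grin2b groups overlapped (log2 fold change 0.17, edgeR adjusted p = 0.323), and the sign turned with library totals (-0.10).

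The body of each gene was therefore set against its start region within each library, a ratio that does not depend on the scaling and was chosen after seeing the data. Summed over the body, Grin2b had 412, 435 and 390 CPM in control and 330, 344 and 377 CPM in knockdown. The sum was 25.9, 26.9 and 28.9 times the start region in control and 18.6, 19.1 and 24.3 times in knockdown, without overlap (exact two-sided permutation test, p = 0.1, the smallest possible). For Grin2a the body held 254, 265 and 260 CPM in control and 216, 231 and 231 CPM in knockdown. Its ratio was 13.4, 14.3 and 14.6 in control and 13.8, 12.9 and 11.2 in knockdown, and the groups overlapped (exact permutation test, p = 0.2). Grin3a, the third longest gene at 184 kb, had ratios of 3.68, 3.6 and 3.86 in control and 2.62, 2.62 and 2.54 in knockdown (exact permutation test, p = 0.1). There the body sums overlapped, at 68.2 to 80.8 CPM in control and 72.5 to 76.5 CPM in knockdown, and the start region was the part that was higher. In Grin2d, with 4 body regions, the mean ratio was higher in knockdown, at 1.97 in control and 2.56 in knockdown (exact permutation test, p = 0.2). In Grin2c, with 1 body region, it was 0.633 and 0.48 (exact permutation test, p = 0.1). In Grin1, with 2, it was 0.251 and 0.192 (exact permutation test, p = 0.2). Over all genes, start regions had a median log2 fold change of 0.21, and regions inside genes of 400 kb or longer had -0.10. Whether the ratio also fell in other long genes was not tested, so its fall cannot be called particular to these genes.

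**Figure D3:**
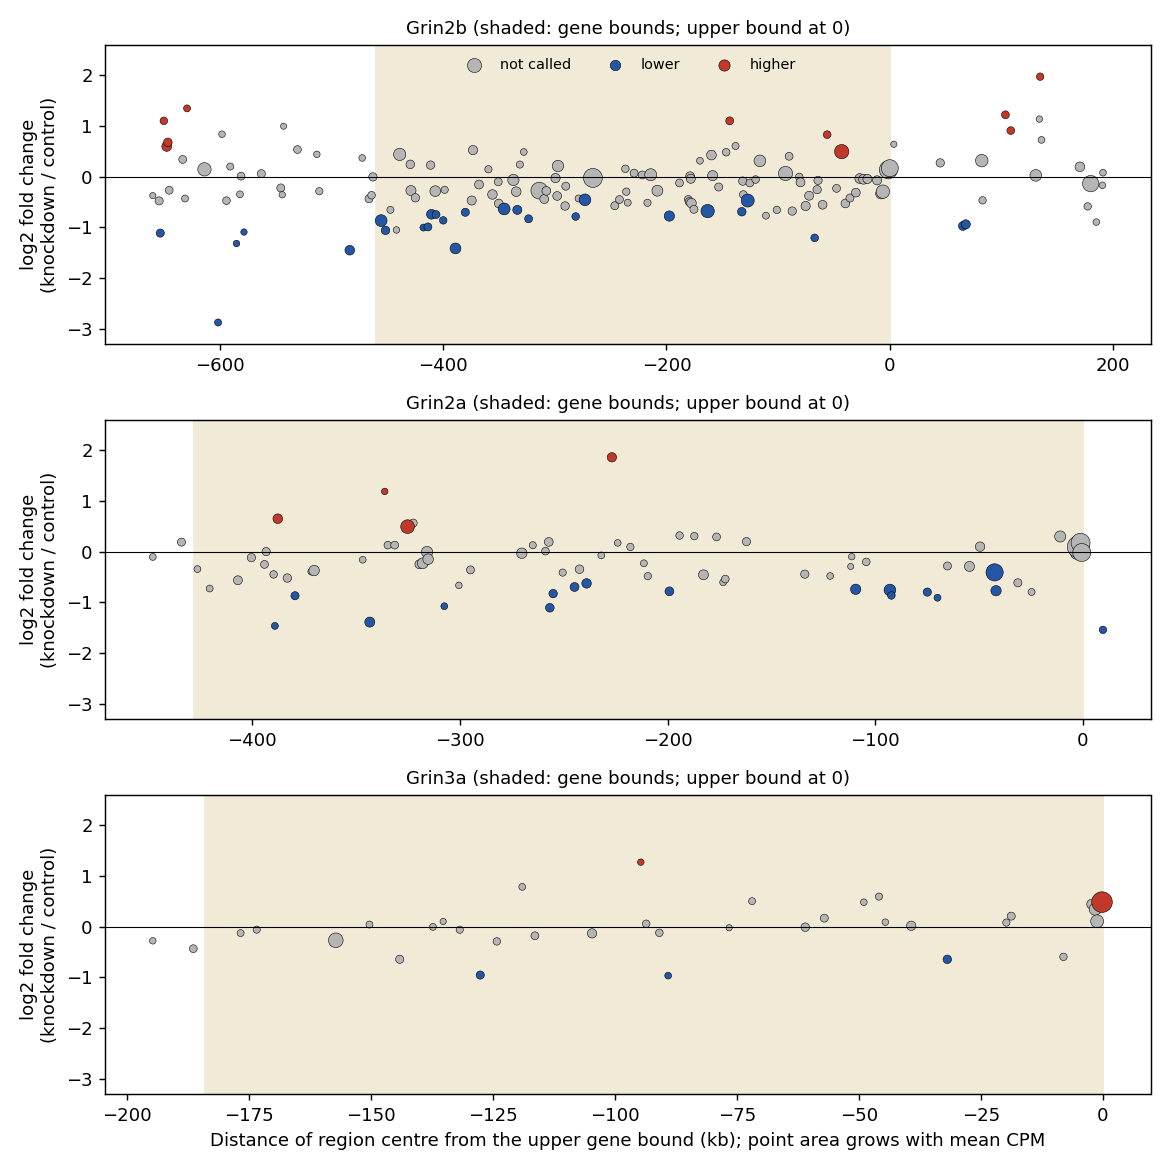
Log2 fold change of each region of Grin2a, Grin2b and Grin3a against its distance from the upper bound of the gene in kb, with called regions coloured. Called losses are spread along Grin2a, and in Grin2b they are more frequent towards the lower bound.

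Along Grin2b the losses were unevenly placed. With the gene divided into 3 equal lengths, 12 of 35 regions fell in the length next to the lower bound, 4 of 31 in the middle and 3 of 38 in the length next to the upper bound, where the start region lies. In Grin2a the corresponding counts were 4 of 28, 5 of 24 and 7 of 22. Whether these lengths differ was not tested, since the division was described after the calls were seen. Neighbouring regions of a gene share their libraries and are not replicates of each other.

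The strongest loss inside Grin2b was at 135784221 to 135784979, with 9.72, 8.04 and 6.76 CPM in control and 2.79, 1.9 and 4.32 CPM in knockdown. Every knockdown library was below every control library (log2 fold change -1.41, SE 0.24, edgeR adjusted p = 0.00045), and the call held under every alternative but the grouping by title. The most accessible region of the window, deep inside the gene (135907552 to 135907952), had 22.5, 20.5 and 18.8 CPM in control and 19.6, 19.4 and 21.6 CPM in knockdown and was not called. Its groups overlapped, with a log2 fold change of -0.03 whose sign turned without control replicate 1 (0.04) or knockdown replicate 1 (0.01).

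Around Grin2b, 44 regions lay 20 to 200 kb away, and of these 7 rose and 7 fell, with a median log2 fold change of 0.02. Of all regions between genes 15.3% rose and 13.4% fell. The largest loss of all members lay 141118 bp below the gene (135571703 to 135572103), where control replicates 1 to 3 had 3.64, 2.65 and 1.51 CPM and knockdown replicates 1 to 3 had 0.227, 0.237 and 0.531 CPM. Knockdown replicates 1 and 2 held 3 reads each there and knockdown replicate 3 held 8 (a log2 change of -2.87 with an SE of 0.42, edgeR adjusted p = 0.00015). A region 23068 bp below the gene (135689753 to 135690153) had 9.34, 4.33 and 4.73 CPM in control and 0.906, 1.58 and 3.92 CPM in knockdown. Control replicate 1 was the highest by far, and the loss (log2 fold change -1.45, edgeR adjusted p = 0.00746) was no longer called without it (0.063) or in DESeq2 (0.1).

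The largest gain near Grin2b lay 134589 bp above its upper bound (136308204 to 136308604) and 18935 bp from Eif4a3l1, the nearest gene. It had 0.683, 0.741 and 0.757 CPM in control and 3.1, 2.93 and 2.66 CPM in knockdown, with close agreement within each group (a log2 change of 1.97 with an SE of 0.27, edgeR adjusted p = 7.52e-05). A region 103300 bp above the gene (136276915 to 136277675) had 1.37, 1.64 and 0.946 CPM in control and 2.42, 4.04 and 2.85 CPM in knockdown (log2 fold change 1.22, edgeR adjusted p = 0.0039). On the other side, 168938 bp below the gene (135543883 to 135544283), control had 0.835, 0.819 and 0.709 CPM and knockdown 2.64, 1.5 and 1.86 CPM (log2 fold change 1.34, edgeR adjusted p = 0.00403). This gain was not called with knockdown replicate 2 alone, while the gains above the gene were.

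Inside Grin2a the largest change was a gain against the direction of most of its regions. The region from 9768976 to 9769648, in the middle of the gene, had 1.59, 1.95 and 1.28 CPM in control and 5.44, 5.86 and 6.37 CPM in knockdown. The groups were well apart (a log2 change of 1.86 with an SE of 0.22, edgeR adjusted p = 2.14e-05). The largest loss lay 9513 bp above the gene (10005596 to 10005996), with 3.26, 2.07 and 2.79 CPM in control and 1.51, 0.792 and 0.465 CPM in knockdown (log2 fold change -1.54, SE 0.34, edgeR adjusted p = 0.00316). Both calls held under every alternative but the grouping by title. The most accessible Grin2a region (9993727 to 9994127) had 25.5 to 28.6 CPM in control and 27 to 29.9 CPM in knockdown and was not called.

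Grin2c and Grin2d, genes of the GluN2 subunits known for cerebellar granule cells and for interneurons and midbrain, respectively, are short and lie among other genes. None of the 3 regions inside Grin2c was called (edgeR; 1 had an unadjusted p under 0.05, and 0 were called by DESeq2). The start region of Grin2c (chromosome 11, 115267005 to 115267405) had the lowest mean of the family in both groups, overlapping Grin3b, with 4.33, 5.58 and 4.49 CPM in control and 4.61, 3.72 and 4.32 CPM in knockdown. These groups overlapped (log2 fold change -0.20, edgeR adjusted p = 0.481).

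The called regions of the Grin2c window belonged to its neighbours. A region inside Fdxr, which encodes a mitochondrial ferredoxin reductase, fell at 115270511 to 115270911, from 11.1, 10.6 and 9.51 CPM in control to 5.97, 8 and 5.97 CPM in knockdown (log2 fold change -0.65, edgeR adjusted p = 0.00696). A region at a gene bound of Fdxr (115276884 to 115277284) was the most accessible of the window, with 60.1, 50.4 and 51.1 CPM in control and 69.1, 60.3 and 66.1 CPM in knockdown (log2 fold change 0.28, edgeR adjusted p = 0.0402, and -0.07 with loess curves). A region inside Fads6, named for fatty acid desaturases, had 4.02, 3.16 and 3.93 CPM in control and 12.5, 2.3 and 6.71 CPM in knockdown (115282501 to 115282901). Its groups overlapped, since knockdown replicate 2 was below all controls while knockdown replicates 1 and 3, the libraries with high astrocyte marker sums, were above them (log2 fold change 0.97, edgeR adjusted p = 0.047; -0.69 with knockdown replicate 2 alone). Both gains failed in DESeq2 and under most other alternatives.

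At Grin2d 4 of 12 regions rose and none fell (edgeR; 0 at an unadjusted p under 0.05 and 0 by DESeq2). Of the 8 within 1 kb of a gene bound 3 rose (37.5%), a share near the 32.9% of all regions so placed. The region nearest to the upper bound (chromosome 7, 45870662 to 45871062) had 12.4, 15.8 and 13.7 CPM in control and 11.9, 14.1 and 16.9 CPM in knockdown and was not called (log2 fold change 0.03, edgeR adjusted p = 0.907, with a negative sign under all 3 other scalings). The RefSeq start lies further inside the bounds, and the region 295 bp from that start (45865986 to 45866386, singled out after its values were seen) had 20.6, 22.5 and 20.5 CPM in control and 29.2, 31.6 and 28.3 CPM in knockdown. All its knockdown libraries were above all control libraries (log2 fold change 0.48, edgeR adjusted p = 0.0021). The region from 45869918 to 45870318 followed the same pattern, with 13.4, 14 and 12.7 CPM in control and 18.7, 20.8 and 19 CPM in knockdown (log2 fold change 0.54). The other 2 gains lay at Kdelr1, which encodes a receptor that returns proteins to the endoplasmic reticulum. The larger of them (45873242 to 45873642) had 11.2, 11.3 and 10.3 CPM in control and 13.4, 16.3 and 18 CPM in knockdown (log2 fold change 0.54, edgeR adjusted p = 0.00623). None of the 4 was called with library totals.

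The GluN3 genes differed from each other at their start regions. Grin3a had the start region of highest mean in both groups, overlapping Grin1 in control only (chromosome 4, 49845594 to 49845994), with 18.5, 21.6 and 20.9 CPM in control and 27.9, 29.2 and 28.5 CPM in knockdown. The groups did not overlap (log2 fold change 0.48, SE 0.10, edgeR adjusted p = 0.00218), and the call was lost with library totals (0.18) and with the grouping by title, and under no other alternative run. Over the window of Grin3a 2 of 35 regions rose and 3 fell, with a median log2 fold change of -0.004. The largest of these changes were at weak regions. A region at 49751097 to 49751497 had 0.607, 0.546 and 0.52 CPM in control and 1.13, 1.5 and 1.39 CPM in knockdown (log2 fold change 1.27, edgeR adjusted p = 0.0116; not called in DESeq2 or with knockdown replicate 2 alone). Another at 49756733 to 49757133 had 1.75, 1.44 and 1.7 CPM in control and 0.906, 0.396 and 1.13 CPM in knockdown. Its loss (log2 fold change -0.96, edgeR adjusted p = 0.0419) was not called in DESeq2 or in 5 of the 6 fits without a library. A nearly equal loss at 49718187 to 49718587 (log2 fold change -0.95, edgeR adjusted p = 0.00732) held under every alternative but the grouping by title. Its levels were 3.04, 3.63 and 3.31 CPM in control and 1.74, 1.35 and 2.06 CPM in knockdown. The remaining loss, at 49813886 to 49814286 (log2 fold change -0.64), was called in none of the 6 fits without a library.

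Grin3b, the shortest gene of the family, had a single region inside it, at its start (chromosome 10, 79970650 to 79971050). It had 4.93, 7.3 and 7.19 CPM in control and 4.83, 4.27 and 5.24 CPM in knockdown. Control replicate 1 lay among the knockdown libraries, and the difference did not pass the test (log2 fold change -0.45, SE 0.19, edgeR adjusted p = 0.0902). Elsewhere in the window a region 832 bp from Arid3a (79955850 to 79956250) rose from 0.911, 1.68 and 0.757 CPM to 2.27, 3.48 and 3.45 CPM (log2 fold change 1.41, edgeR adjusted p = 0.00262). A region 1175 bp from Cnn2 (79987025 to 79987425) fell from 11.1, 10.2 and 10.1 CPM to 7.33, 6.81 and 5.31 CPM (log2 fold change -0.69, edgeR adjusted p = 0.00418). Arid3a encodes a DNA-binding protein and Cnn2 an actin-binding calponin, and both calls held under every alternative but the grouping by title.

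Counts were also summed over each gene and its 20 kb flanks, which gives a single value per gene and library. Of 18420 genes tested in this way 17.9% rose and 19.6% fell. Among the subunit genes Grin1 rose, from 152, 153 and 148 CPM in control to 189, 185 and 199 CPM in knockdown (log2 fold change 0.34, SE 0.05, edgeR adjusted p = 0.00025). Grin2a fell from 300, 327 and 330 CPM to 236, 270 and 269 CPM (log2 fold change -0.30, SE 0.07, edgeR adjusted p = 0.0026). Grin2b fell from 454, 508 and 468 CPM to 346, 384 and 401 CPM (log2 fold change -0.34, SE 0.07, edgeR adjusted p = 0.0023). In each of these 3 genes the groups did not overlap, and neighbours within 20 kb share their regions with the sums.

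The sums of the other 4 genes did not pass the test. The log2 fold changes were 0.02 for Grin2c, 0.12 for Grin2d, -0.06 for Grin3a and -0.15 for Grin3b, with edgeR adjusted p of 0.79, 0.078, 0.54 and 0.055. The Grin3b sum was called lower with loess curves (edgeR adjusted p = 0.027), without knockdown replicate 1 (0.041) and, at the threshold, in DESeq2 (0.05), and the Grin2d sum was called higher with reads in regions (0.034). The choice of window mattered for the short genes: with the gene bounds alone Grin2c (-0.38, edgeR adjusted p = 0.031) and Grin3b (-0.61, edgeR adjusted p = 0.029) fell, where 18.3% of all genes rose and 19.7% fell. With flanks of 5 kb they fell as well (-0.50 and -0.54, edgeR adjusted p = 0.0013 and 0.015), where 19.9% of all genes fell. Grin1 was still called higher, at 0.20 with flanks of 5 kb (edgeR adjusted p = 0.031) and 0.31 with the gene bounds alone (0.0067). Its control mean was 50.9 CPM within the gene bounds and 151 CPM with flanks of 20 kb, so much of the Grin1 sum lies outside the gene. The scaling factors of the sums differ from those of single regions, and with the latter the median of all genes became 0.14. Under that scaling Grin1 was at 0.48 (edgeR adjusted p = 5.3e-05) and Grin2b at -0.20 (0.035), Grin2a at -0.17 was no longer called (0.072), and Grin2d at 0.26 was (0.0076). With library totals, where the median of all genes was -0.12, Grin1 at 0.22 was not called (0.18), while Grin2a and Grin2b were, at -0.43 (0.0048) and -0.46 (0.003).

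**Figure D4:**
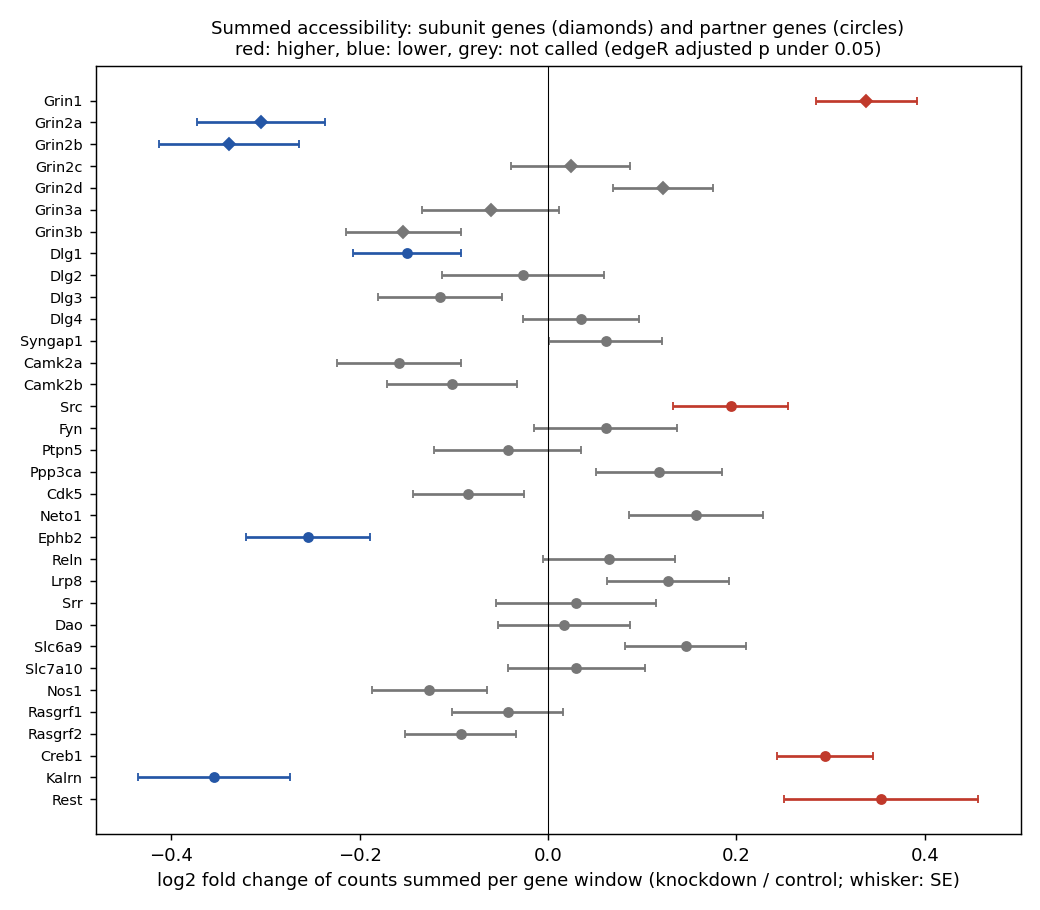
Log2 fold change of the counts summed over each gene and its 20 kb flanks, with standard errors, for the 7 subunit genes and the 26 genes of the partner list. Grin1 is among the called gains and Grin2a, Grin2b and Kalrn among the called losses; with library totals the gain at Grin1 was not called, and the sums of Grin2c and Grin2d turned in sign.

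A list of 26 genes that act with the receptor was examined in the same way. It holds scaffold proteins of the postsynaptic density, kinases and phosphatases that act on the subunits, auxiliary proteins, enzymes and transporters of the co-agonists, downstream effectors and Rest, a repressor of neuronal genes. Of its 990 regions 130 rose (13.1%) and 112 fell (11.3%), with a median log2 fold change of -0.03, both shares being below the 15.4% and 12.7% of all regions. Of 25 start regions 11 rose and none fell (edgeR; 0 at an unadjusted p under 0.05 and 0 by DESeq2), against 34% and 6.6% of the start regions of all genes.

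The start regions that rose came from every role in the list. Among scaffolds Dlg2 rose from 9.87, 10.6 and 10.1 CPM to 13.9, 14.6 and 14.2 CPM (log2 fold change 0.48, edgeR adjusted p = 0.0086). Among enzymes that act on the subunits, the start regions of the kinase Fyn (log2 fold change 0.38), the phosphatase Ptpn5 (0.31) and the calcineurin subunit Ppp3ca (0.47) rose. Of the auxiliary proteins and regulators, Neto1 (0.68) and the reelin receptor Lrp8 (0.62) rose. In co-agonist supply, the start region of the glycine transporter Slc6a9 rose (0.41), and that of the D-amino acid oxidase Dao had 2.35, 1.76 and 2.03 CPM in control and 4.38, 1.5 and 5.38 CPM in knockdown (0.91, edgeR adjusted p = 0.042; -0.44 with knockdown replicate 2 alone). Dao was high in knockdown replicates 1 and 3 only, the libraries with high astrocyte marker sums, and the part of that in its value was not tested. Downstream of the receptor, Rasgrf2 (0.39) and the transcription factor Creb1 (0.58) rose, and the start region of Rest rose from 15.1, 19.3 and 15.9 CPM to 27.4, 25.9 and 30.1 CPM (0.72, edgeR adjusted p = 0.00029). With library totals only Rest of these 11 was still called.

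Within the list, losses were most numerous at Kalrn, a gene singled out after its counts were seen. Kalrn, which encodes a guanine nucleotide exchange factor of dendritic spines, had 35 of its 132 regions lower and 5 higher, where 12.7% of all regions and 13.8% of those inside the longest genes fell. Its start region was not called, at 14.4, 14.8 and 16.1 CPM in control and 12.3, 16.8 and 19.1 CPM in knockdown. Its summed counts fell from 739, 742 and 713 CPM to 512, 591 and 613 CPM (log2 fold change -0.35, edgeR adjusted p = 0.0032). Dlg2, the scaffold gene with the most regions, had 34 of 314 higher and 18 lower, both below the shares of all regions (15.4% and 12.7%). By summed counts 3 of the 26 genes, Src, Creb1 and Rest, rose and 3, Dlg1, Ephb2 and Kalrn, fell, against 17.9% and 19.6% of all genes.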

How the data were processed

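ATAC-seq of sorted nuclei was analysed in 3 control and 3 knockdown libraries, grouped by the genotype label. Per the submitters' processing notes, the build was mm10 and the tools included SAMtools 1.9, BWA, MACS2, Picard, Trimmomatic and FastQC, with no role stated. How regions were made, how reads were counted and whether they were shifted for the transposase is not given in the sources used here. For every region the authors deposited a count, an RPKM and a score, per the file headers. Deposited counts are unnormalized whole reads on 193148 regions shared by all libraries, 94.6% of them 401 bp wide. The deposited RPKM values gave the library totals used as an alternative scaling, and the deposited score, a scaled signal, was not tested.

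Counts of all regions were fitted with edgeR 4.0.16 in R 4.3.3 (quasi-likelihood test, TMM scaling, filterByExpr, group as the only term). Calls have a Benjamini-Hochberg adjusted p under 0.05 over all 191693 regions tested. Fold changes are log2 ratios, knockdown to control, and levels are CPM with TMM-scaled library sizes. The level of 3 reads covers counting error only. Region sums per gene were fitted alike, with TMM factors of their own. The procedure was also run on simulated counts with a single fixed spread, a simpler setting than these data, so that run does not bear on the calls given here. Gene bounds came from the RefSeq table for GRCm38.p6 (21883 protein-coding genes), which lists no exons, so regions could not be placed in exons, introns or UTRs. It gave a start for 4 of the 7 genes.

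Members and lists were chosen with earlier results of these data known. Regions named are, per gene, the start region, the most accessible region and the called region of largest fold change in each direction (3 each for Grin2b), with start regions of the partner list where called. Further regions of the Grin1, Grin2d and Grin3a windows, the region counts of Kalrn and Dlg2 and the Kalrn start were chosen after their values were seen. Alternatives were DESeq2 1.42.0, no filter, other scalings (library totals, reads in regions, loess curves), each library left out, knockdown replicate 2 alone against the controls, grouping by title and gene flanks of 5 kb. Gene bounds without flanks, region scaling factors for the sums and the ratio of body to start were chosen after seeing the data.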

Additional observations from a re-analysis of the deposited data

How the results depend on the processing

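Of the 32 gains and 49 losses among the members, 30 and 49 kept their direction under every alternative, and 9 and 10 were called under every alternative but the grouping by title. Called gains and losses numbered 20 and 25 with DESeq2, 11 and 98 with library totals and 17 and 20 with knockdown replicate 2 alone. With reads in regions they numbered 21 and 73. Of all regions tested, 10.9% rose and 7.69% fell with DESeq2, against 15.4% and 12.7% in the main fit. With library totals 6.82% of all regions rose and 24.6% fell, and with reads in regions 11.8% rose and 17.4% fell. The shift towards losses under these scalings was thus not limited to the members. Without each library in turn the member gains and losses numbered 20 to 31 and 26 to 47. The lowest counts were without control replicate 3 (gains) and control replicate 2 (losses). In the partner list the counts were 46 and 243 with library totals, 52 and 45 with knockdown replicate 2 alone, and 82 to 126 gains and 63 to 120 losses without each library. By summed counts, 1 subunit gene rose and 2 fell, and 3 fell with DESeq2 and with loess curves. There were 0 gains with library totals, 2 with reads in regions, 2 gains and 1 loss with the factors of the regions, and 4 losses with flanks of 5 kb or none. Without each library the summed losses numbered 2 to 3 and the gain 1. Grouping by title gave 0 calls for each count. The fit with knockdown replicate 2 alone assumes that this library varies like the controls.

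Changes of sign were limited to values that were not called, apart from the Fdxr bound and Fads6 regions of Grin2c and the Dao start. The Grin2c sum turned to -0.096 with library totals, -0.012 with loess curves, -0.047 by title, -0.135 with knockdown replicate 2 alone, -0.498 with flanks of 5 kb and -0.383 without flanks, and ranged from -0.018 to 0.095 without each library. The Grin2d sum was -0.00011 with library totals. The Grin3a sum became 0.005 by title, 0.029 with knockdown replicate 2 alone and 0.083 with the factors of the regions, and ranged from -0.135 to 0.010 without each library. The Grin2a start region became 0.118 by title and ranged from -0.108 to 0.091. The most accessible Grin2a region became -0.166 with library totals, -0.015 with reads in regions and -0.141 with loess curves. The Grin2b start became -0.100 with library totals, and the most accessible Grin2b region 0.002 by title, with a range of -0.089 to 0.043 without each library. The Fdxr bound region became -0.069 with loess curves, and the Fads6 region -0.370 by title and -0.692 with knockdown replicate 2 alone. The Grin2d start became -0.226 with library totals, -0.086 with reads in regions, -0.108 with loess curves and -0.021 with knockdown replicate 2 alone, and ranged from -0.100 to 0.157 without each library. The most accessible region near Grin2d, at Cyth2, became -0.051 with library totals, -0.140 with loess curves, -0.023 by title and -0.028 with knockdown replicate 2 alone. That near Grin3b, at Tmem259, became -0.087 with library totals and -0.148 with loess curves. The Dao start became -0.437 with knockdown replicate 2 alone. The cause was not tested. Regions under about 1 CPM rest on few reads, which limits small differences there.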

Other observations

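Among the 13859 distinct start regions of all genes, those with the level pattern most like Grin1 over the 6 libraries were Zfp709 (Pearson r 0.998), Otx1 (0.997) and Cd80 (0.997), by log2 of CPM plus 0.5. For Grin3a they were Ralgps2 (0.996), Kcnt2 (0.996) and Zmynd11 (0.996). For Grin3b, Drd5, which encodes a dopamine receptor, was closest (0.989), with a log2 fold change of -0.75 (edgeR adjusted p = 0.028) at its own start region. For Grin2a the closest was Nrsn2 (0.985), for Grin2b Clstn1 (0.984), for Grin2c Zfp971 (0.989) and for Grin2d Cys1 (0.976). All points share the same 6 libraries and their group difference, and 483 start regions had r over 0.95 with Grin1 and 549 with Grin3a, so these values describe the libraries and single out no gene.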
